A study of Mus musculus with 6 samples.

Results

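The 34 genes described here encode integrins and the proteins of focal adhesions, the contacts through which a cell holds on to its matrix. They are 12 integrin α subunits, 7 integrin β subunits and 15 adaptors, kinases and actin linkers, of 21883 protein-coding genes with a place in the annotation used. The members were listed by name, and their chromatin was read from ATAC-seq, which marks accessible DNA by the insertion of the transposase Tn5. Peaks from the 6 lists that overlapped by at least 1 bp were joined into 1 region, and a region was taken as a member's where it overlapped the RefSeq gene span (GRCm38) extended by 20 kb on either side. This gave 442 regions of 89410 in all. The groups were 3 libraries of OB Fam20c f/f, an immortalized mouse osteoblast line with both Fam20c alleles floxed, and 3 libraries of OB Fam20c KO, made from that line by infecting it with a lentivirus for Cre recombinase. Fam20c encodes a secretory pathway kinase. No source used here gives a mock-infected control or says whether the KO line is 1 clone, so loss of Fam20c, infection and selection of cells cannot be told apart. Cells of both groups were grown in αMEM with 10% fetal bovine serum, and 50000 nuclei were transposed for 30 min at 37 °C. That the libraries came from separate cultures is not stated, so p-values measure only the spread between these libraries.

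Integrins are receptors made of 1 α and 1 β subunit that span the membrane and bind matrix proteins such as collagen, fibronectin and vitronectin. Talin and kindlin bind the β tail and switch the receptor on, vinculin, zyxin and α-actinin tie it to actin, and the kinases FAK and Src signal from it through paxillin and the scaffold p130Cas. In osteoblasts these contacts hold the cell to the collagen matrix that it lays down.

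The 6 lists held 32958 to 74797 peaks, the fewest in KO replicate 3. The reads behind each peak were not analysed here, and a missing peak means only that the authors' threshold was not passed. To keep the short list from setting the result, each region with a peak in all 6 libraries was ranked within each library by its −log10 q, the caller's measure of how far the pile of reads stands above background. The rank is a percentile among 29849 such regions, with 100 the highest, and differences are KO minus f/f in percentile points. Of 10 osteoblast marker genes, 8 had a peak in all 6 libraries, and Ibsp and Bglap had no peak in any library. A peak in all 6 libraries was also found at 2 of 6 leukocyte, 3 of 4 endothelial, 1 of 4 epithelial and 0 of 3 muscle markers, so that these lists do not define the cell type by themselves. Peaks at the Fam20c locus do not check its deletion.

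Chromatin at the members was mostly marked in both groups. A peak was present in 310, 314 and 359 member regions in f/f replicates 1 to 3 (70.1%, 71.0% and 81.2% of 442) and in 332, 353 and 197 in KO replicates 1 to 3 (75.1%, 79.9% and 44.6%). Over all regions the shares were 69.0%, 68.8% and 82.7% in f/f and 69.6%, 70.9% and 35.8% in KO. The f/f and KO libraries therefore overlapped, and KO replicate 3 was the lowest on both counts. All 6 libraries shared 186 member regions (42.1%, against 33.4% of all regions), and 79 more were present in every library but KO replicate 3. Members had a median of 11 regions over a median span of 73.5 kb, where the median protein-coding gene with a region had 5 over 20.7 kb. Counts ran from 1 region at Itgb8, a β subunit that pairs with αv, to 36 at Tns3, which encodes tensin 3, a linker of β tails to actin.

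**Figure D1:**
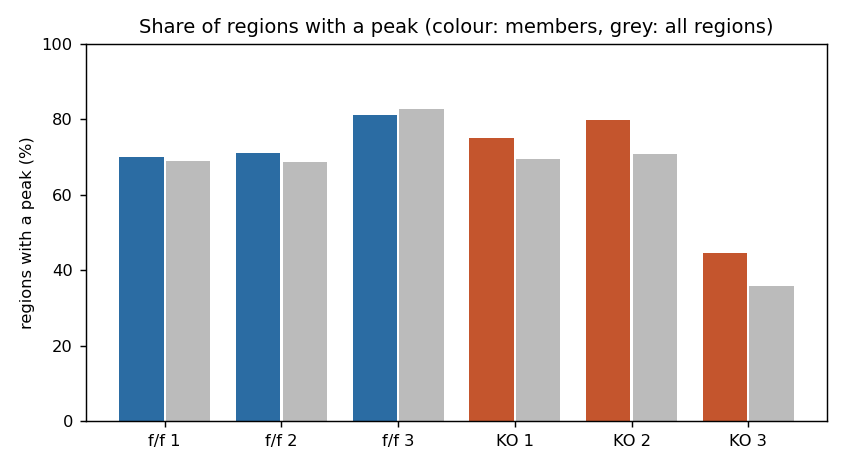
Share of regions with a peak (%) in each library, for the 442 regions at members (coloured bars, blue f/f and red KO) and for all 89410 regions (grey bars). KO replicate 3 had the lowest share on both, 44.6% and 35.8%, and the other 5 libraries lay between 68.8% and 82.7%.

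Few member regions were present in 1 group alone. Peaks in 3 of 3 f/f libraries and 0 of 3 KO libraries were found at 6 member regions (1.36%), where 3.75% of all regions showed this. The reverse, 3 of 3 KO libraries and 0 of 3 f/f libraries, was found at 3 member regions (0.679%), against 0.179% of all regions. Both counts are a description, since a region of 3 libraries against 3 cannot reach a p below 0.1. KO replicate 3 limits the second count. Without it, 21 of 440 member regions (4.77%) were only in KO against 2.93% of all, and 6 (1.36%) were only in f/f against 3.82% of all. At the level of genes, 5 of 34 members had a region only in f/f, where 16.3% of protein-coding genes with a region did, and 2 had a region only in KO, where 0.903% did. Size enters these shares of genes, since members had a median of 11 regions and protein-coding genes with a region 5.

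The ranks gave calls in both directions. By limma with Benjamini-Hochberg adjustment over all 29849 regions, 31 of 186 member regions (16.7%) were lower in KO and 23 (12.4%) were higher, where 11.3% and 12.6% of all regions were lower and higher. The difference was negative at 100 and positive at 86 member regions, with a median of -0.58 percentile points, beside -0.24 over all regions. A large part of the lower calls came from 1 gene. Leaving out Itgb5, the β5 subunit that binds vitronectin, 23 of 175 regions were lower and 23 were higher (13.1% each). A lower region was found at 18 of 33 members with a tested region and a higher one at 16, where 24.6% and 26.5% of protein-coding genes had one. That comparison of genes also counts size, since members had a median of 5 tested regions and protein-coding genes 2.

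**Figure D2:**
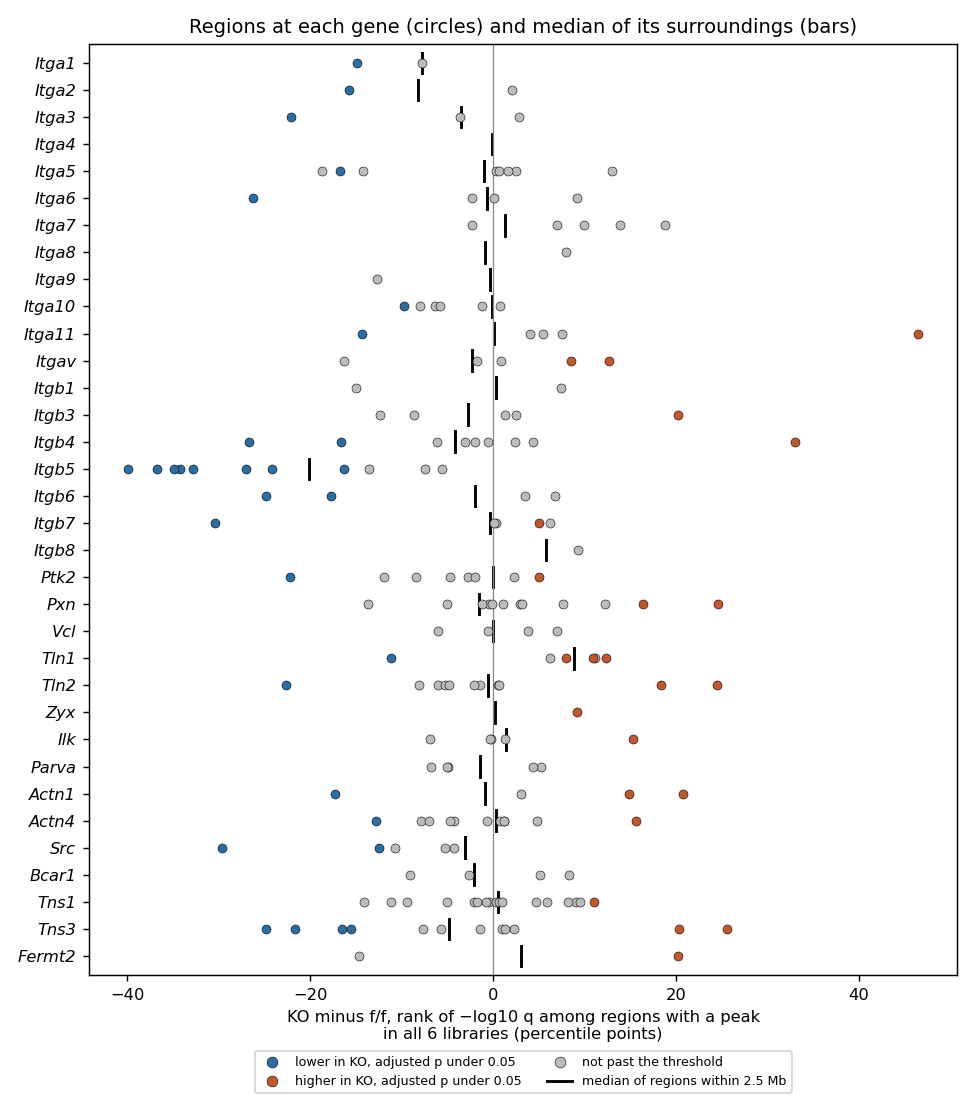
Difference in rank of −log10 q, KO minus f/f in percentile points, at each member region with a peak in all 6 libraries (circles, coloured where the adjusted p was under 0.05), with the median of the other regions within 2.5 Mb of the gene (black bars). Lower and higher regions stand side by side at many genes, and the 11 Itgb5 circles all lie below 0, as does the bar of its surroundings at -20.1.

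Another measure in the same lists, the fold of the summit over local background, moved with most of these calls, but not with 6 of the 8 at Itgb5. Ranked by fold, the difference had the same sign at 23 of 23 higher and 25 of 31 lower member regions. The sign was also the same at 76.9% of all 186 tested member regions and at 79.5% of all 29849 regions. The 6 lower regions with a positive difference by fold were all at Itgb5, while its other two lower regions kept a negative one (-18.4 and -8.91 points, neither past the threshold). Few calls passed by fold, 2 lower and 2 higher at members, with 188 and 225 over all regions, and ranked within the whole list, where the length of KO replicate 3's list enters, 1 lower and 0 higher member regions passed. Of the 54 calls, 32 held when any 1 library was left out, and the loss of the others is given beside those described. The calls rest on the rank of −log10 q among shared regions. Whether the groups overlap at a called region is read from these same ranks and is no separate evidence.

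At gene starts more member regions were higher than lower in KO by rank among shared regions, which did not hold within the whole list. A RefSeq start window, from 250 bases before the start to 50 after it, was at hand for 26 members. Of these, 22 had a region on the window, and Itga9, Itga11, Itgb6 and Tns1 had none. Peaks of such a region can miss the window itself in some libraries, as at Src and Itgb7. The only window of Itga9 lies inside its span. A region on the 5′ end of that span, centred 105 kb before the window's start, had a peak in all 6 libraries (-12.6 points, adjusted p = 0.0779). No window was at hand for Itga6, Itga7, Itgb3, Itgb4, Ptk2, Pxn, Tln2 and Parva. Of 21 start regions with a peak in every library, 6 were higher in KO (28.6%) and 2 were lower (9.52%), where 15.4% and 9.12% of 9371 start regions of all genes were. The difference was positive at 16 of 21, with a median of 3.80 points, beside 0.477 over all starts. Ranked within the whole list it was positive at 8 of 21, with 0 higher and 1 lower, and ranked by fold it was positive at 18 of 21, with 0 higher and 0 lower. The higher starts were those of Itgav, Tln1, Zyx, Ilk, Actn1 and Fermt2, and the lower ones those of Itga1 and Itgb5. Away from the start windows of any gene, 26 of 144 member regions were lower (18.1%) and 15 higher (10.4%), where all such regions had 12.3% and 11.3%. Without Itgb5 these were 20 of 135 (14.8%) and 15 (11.1%). Starts of the 8 genes with no window may be among them, as may the region on the 5′ end of Itga9. Start windows of any gene took 27.9% of the peaks of KO replicate 3 and 14.3% to 16.4% in the other lists. Without that library the difference was positive at 17 of the 21 starts, with 5 higher and 2 lower.

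**Figure D3:**
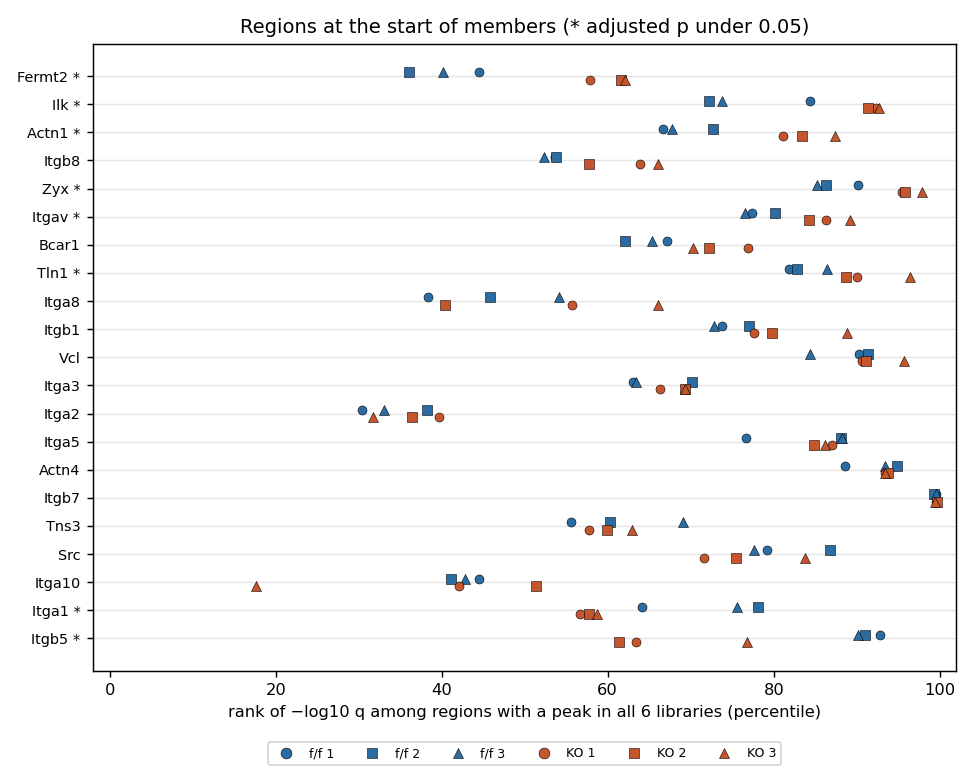
Rank of −log10 q (percentile among regions with a peak in all 6 libraries) at the 21 start regions of members, 1 symbol per library, blue f/f and red KO, ordered by the difference from Itgb5 at the bottom to Fermt2 at the top. At each start marked with an asterisk (adjusted p under 0.05) the groups do not overlap, which is read from the ranks that gave the call. Many of the others interleave.

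The 250 bases before the start are shown for 2 starts that were lower, 3 that were higher and 1 with a peak in KO alone, since the promoter differences described below lie at them. The sequences are from RefSeq on GRCm38.p6, given 5′ to 3′ on the gene's strand. Capitals mark letters searched on both strands, CAGCTG (an E-box), TGACTCA (AP-1), GGAATG (TEAD), TGTGGT (RUNX) and GGGCGG (Sp1/KLF). Itgb5 lies on chr16:33829415-33829664, plus strand, and Itga1, which encodes the α1 collagen receptor subunit, on chr13:115101965-115102214, minus strand. Fermt2, which encodes kindlin 2, lies on chr14:45530066-45530315, minus strand. Actn1, which encodes α-actinin 1, lies on chr12:80260364-80260613, minus strand. Zyx, which encodes zyxin, lies on chr6:42349578-42349827, plus strand, and the outer of the 2 starts of Bcar1, which encodes p130Cas, on chr8:111743850-111744099, minus strand.
Itgb5: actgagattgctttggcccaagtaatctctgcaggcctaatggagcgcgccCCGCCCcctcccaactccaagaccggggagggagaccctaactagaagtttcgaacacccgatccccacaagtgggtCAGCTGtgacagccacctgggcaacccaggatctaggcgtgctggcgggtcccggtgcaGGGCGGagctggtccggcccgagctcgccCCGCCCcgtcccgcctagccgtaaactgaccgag
Itga1: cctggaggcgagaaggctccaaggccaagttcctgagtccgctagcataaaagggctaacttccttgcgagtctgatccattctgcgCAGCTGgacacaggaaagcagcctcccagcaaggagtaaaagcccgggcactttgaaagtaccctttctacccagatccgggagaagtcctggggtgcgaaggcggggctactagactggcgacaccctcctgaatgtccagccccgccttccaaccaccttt
Fermt2: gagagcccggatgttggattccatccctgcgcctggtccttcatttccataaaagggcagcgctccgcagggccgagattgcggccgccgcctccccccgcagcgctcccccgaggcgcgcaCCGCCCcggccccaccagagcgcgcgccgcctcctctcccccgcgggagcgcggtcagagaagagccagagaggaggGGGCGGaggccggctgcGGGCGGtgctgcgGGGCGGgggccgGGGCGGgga
Actn1: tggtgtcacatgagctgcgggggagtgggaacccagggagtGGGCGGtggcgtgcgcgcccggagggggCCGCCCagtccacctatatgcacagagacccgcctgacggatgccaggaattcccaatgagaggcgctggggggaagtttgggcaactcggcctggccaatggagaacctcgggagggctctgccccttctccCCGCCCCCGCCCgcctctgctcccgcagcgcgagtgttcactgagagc
Zyx: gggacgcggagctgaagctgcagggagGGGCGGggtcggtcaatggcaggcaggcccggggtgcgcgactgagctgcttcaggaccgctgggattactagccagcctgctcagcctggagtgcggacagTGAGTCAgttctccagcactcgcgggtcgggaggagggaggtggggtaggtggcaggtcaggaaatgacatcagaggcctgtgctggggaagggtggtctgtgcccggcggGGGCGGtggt
Bcar1: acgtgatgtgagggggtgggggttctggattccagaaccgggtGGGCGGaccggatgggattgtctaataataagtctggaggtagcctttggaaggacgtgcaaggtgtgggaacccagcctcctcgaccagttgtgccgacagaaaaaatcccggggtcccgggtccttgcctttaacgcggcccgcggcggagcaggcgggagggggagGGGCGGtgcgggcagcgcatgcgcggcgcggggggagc

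Both lower starts hold the E-box letters, 122 bases before the start of Itgb5 and 163 before that of Itga1, while the 4 other stretches hold none. The E-box is not limited to lower starts among members, since 5 of 26 members hold it, Itga4, Itga5 and Itga9 besides, and 16.3% of all 32851 windows do. GGGCGG stands 5 times before the start of Fermt2, 4 times before that of Actn1, 3 times before that of Itgb5, 2 times before those of Zyx and Bcar1, and not before that of Itga1. It was in 15 of 22 member windows on a region with a peak in all 6 libraries (68.2%), beside 67.5% of all such windows and 35.7% of all windows. Zyx holds the AP-1 letters 121 bases before its start, which Itga9 alone shares among members and 5.2% of all windows hold. For Itga9 both the E-box and the AP-1 letters are in its window inside the span. TEAD letters were in 4 member windows of 30 (13.3%, against 14.7% of all) and RUNX letters in 4 (13.3%, against 16.8%). These matches describe the letters only.

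The α subunits choose the ligand. Their 12 genes held 98 regions, of which 42 were tested, 7 lower (16.7%) and 3 higher (7.14%) in KO, beside 11.3% and 12.6% of all regions, with a median difference of 0.25 points. A lower region was found at 7 of the genes and a higher one at 2. Regions only in f/f numbered 2 (2.04%), both at Itga2, and regions only in KO 0, against 3.75% and 0.179% of all regions.

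Itga11 encodes the α11 subunit, a receptor for fibrillar collagen, and held the highest gain in rank among the members. That region lies within the gene on chr9:62763385-62764471, with its centre 86.1 kb after the start. Its rank was 6.87, 8.76 and 7.10 in f/f replicates 1 to 3 and 52.1, 60.3 and 49.7 in KO replicates 1 to 3, a difference of 46.5 points (SE 4.24, adjusted p = 0.00036). Every KO library was far above every f/f library, and the call also passed by fold (35.9 points, adjusted p = 0.0439). Another region of Itga11, 6.84 kb after the start on chr9:62684078-62685316, went the other way. There the rank was 69.2, 69.3 and 63.0 in f/f and 49.7, 51.8 and 57.1 in KO, a difference of -14.3 (SE 4.12, adjusted p = 0.0357). The groups did not overlap there, and the call was lost when any library other than KO replicate 3 was left out (adjusted p 0.0614 to 0.11), although it passed by fold (-25.4, adjusted p = 0.0411). No region lay on the Itga11 start.

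Itga1 and Itga2 encode the α1 and α2 subunits, both collagen receptors, and are neighbours on chromosome 13. The start of Itga1, whose bases are shown above, had ranks of 64.1, 78.1 and 75.6 in f/f and 56.6, 57.8 and 58.7 in KO. Every KO library was below every f/f library, and the difference was -14.9 points (SE 4.35, adjusted p = 0.0374). It did not pass without f/f replicate 2, f/f replicate 3, KO replicate 1 or KO replicate 2 (adjusted p 0.0849 to 0.136). The Itga2 start was ranked 30.4, 38.2 and 33.0 in f/f and 39.7, 36.4 and 31.7 in KO, which overlap (2.06 points, SE 4.39, adjusted p = 0.767).

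Both group-specific regions of the α subunits lay beside Itga2. One lies 1397 bp from the end of the span, near the start, on chr13:114933497-114933952. Its peak stood at percentiles 50.2, 38.3 and 50.3 of the whole f/f lists, near their middle, and was in none of the KO lists. The other lies 1321 bp beyond the opposite end, on chr13:114831398-114831760, at percentiles 27.7, 17.2 and 36.8 of the f/f lists. Another region near Itga2, within the neighbouring gene Mocs2 on chr13:114817617-114819191, was lower in KO. Its rank was 67.0, 69.8 and 74.5 in f/f and 59.6, 54.1 and 50.5 in KO (-15.7 points, SE 4.11, adjusted p = 0.0249). That call was lost without f/f replicate 2, f/f replicate 3 or KO replicate 2 (adjusted p 0.068 to 0.108). The surroundings moved with these regions, since within 2.5 Mb of Itga2 15 of 34 other tested regions were lower and 0 higher (median -8.21), and 13 of 141 were only in f/f. By fold the median of those 34 was -2.32.

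Other α subunits had 1 or 2 calls each, named here after their values were seen. At Itga6, the laminin receptor subunit α6, a region within the gene on chr2:71837162-71838369 had ranks of 30.8, 42.4 and 29.9 in f/f and 11.5, 5.34 and 7.63 in KO. All KO libraries were below all f/f libraries, with a difference of -26.2 points (SE 4.27, adjusted p = 0.0036), which also passed by fold (-47.6, adjusted p = 0.0436). A region 8446 bp from Itga3, also a laminin receptor subunit, fell by 22.1 points (SE 4.91, adjusted p = 0.0128). One 9892 bp from Itga5, the α5 fibronectin receptor subunit, fell by 16.8 points (SE 4.10, adjusted p = 0.019), a call lost without f/f replicate 2, f/f replicate 3, KO replicate 1 or KO replicate 2 (adjusted p 0.0522 to 0.0736), while the start of Itga5 overlapped between groups (1.63 points, adjusted p = 0.73). At Itgav, the αv subunit that binds RGD ligands, the start was ranked 77.3, 80.2 and 76.6 in f/f and 86.3, 84.2 and 89.2 in KO. The groups did not overlap (8.54 points, SE 2.12, adjusted p = 0.0203), but the call was lost without f/f replicate 3 or KO replicate 1 (adjusted p = 0.0722 and 0.0541). A region 15039 bp from Itga10, a collagen receptor subunit, lay in Rbm8a and fell by 9.77 points (SE 2.86, adjusted p = 0.0375), and this was lost without f/f replicate 1, f/f replicate 2, KO replicate 1 or KO replicate 2 (adjusted p 0.0734 to 0.13). Itga4, a subunit of fibronectin and VCAM receptors, had 2 regions and none tested, and Itga7, Itga8 and Itga9 had 5, 1 and 1 tested regions with none past the threshold.

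The β subunits carry the tail that talin and kindlin bind. Their 7 genes held 80 regions, 37 of them tested. Of these, 13 were lower (35.1%) and 3 higher (8.11%), beside 11.3% and 12.6% of all regions, with a median of -6.07 points. Without Itgb5 they had 26 tested regions, 5 lower (19.2%) and 3 higher (11.5%), with a median of 0.22. Regions only in f/f numbered 1 (1.25%), at Itgb7, and regions only in KO 0, against 3.75% and 0.179% of all regions.

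Itgb5 held the most lower regions of any member. Its 22 regions on chromosome 16 had peaks at 18, 17 and 21 in f/f and at 16, 15 and 11 in KO. All 11 tested regions had a negative difference, with a median of -27.0 points, and 8 were lower. At the start, whose bases are shown above, the rank was 92.8, 91.0 and 90.1 in f/f and 63.4, 61.4 and 76.8 in KO. Every f/f library was above every KO library (-24.1 points, SE 3.82, adjusted p = 0.00323), and this start also passed when ranked within the whole list (adjusted p = 0.0378). The summit lay 91 to 136 bases before the start in f/f and 12 to 63 before it in KO. Summits of the groups were also apart at the starts of Ilk, Zyx, Actn4 and Itga10, of which Actn4 and Itga10 had no call. At most other member starts they overlapped, and summit position was not tested.

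Within Itgb5, the largest difference was at chr16:33859806-33860761, with its centre 30.6 kb after the start. The rank there was 89.3, 85.2 and 87.2 in f/f and 42.6, 44.7 and 54.8 in KO (-39.9 points, SE 4.03, adjusted p = 0.000505). A region on chr16:33965934-33967585, inside the neighbouring gene Umps, which encodes an enzyme of pyrimidine synthesis, was ranked 90.6, 93.9 and 91.5 in f/f and 57.5, 55.2 and 53.0 in KO. That difference, -36.8 points (SE 2.70), had the smallest adjusted p of any member region, 0.000194. Itgb5 had 7 to 10 lower regions when any 1 library was left out. The one that lost its call, 4.31 kb after the start, did so without f/f replicate 2, KO replicate 2 or KO replicate 3 (adjusted p 0.0671 to 0.0826).

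The surroundings of Itgb5 shared this pattern. Of 105 other tested regions within 2.5 Mb, 83 were lower and 0 higher, with a median of -20.1 points, and 37 of 489 regions were only in f/f. Other focal adhesion genes of the same chromosome, Lpp and Pak2, had 10 of 11 and 4 of 5 tested regions lower. These counts were made without leaving out regions that are among the 105. Fold over local background did not show it, since the median by fold rank was 2.30 points at Itgb5, with 2 of 11 regions negative, and -1.47 in the surroundings, with 60 of 105 negative. At the Itgb5 start the fold itself was 7.32, 5.97 and 6.19 in f/f and 7.46, 7.19 and 7.07 in KO, so that the groups overlapped on fold and not on −log10 q. What sets the 2 measures apart on this chromosome was not tested.

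**Figure D4:**
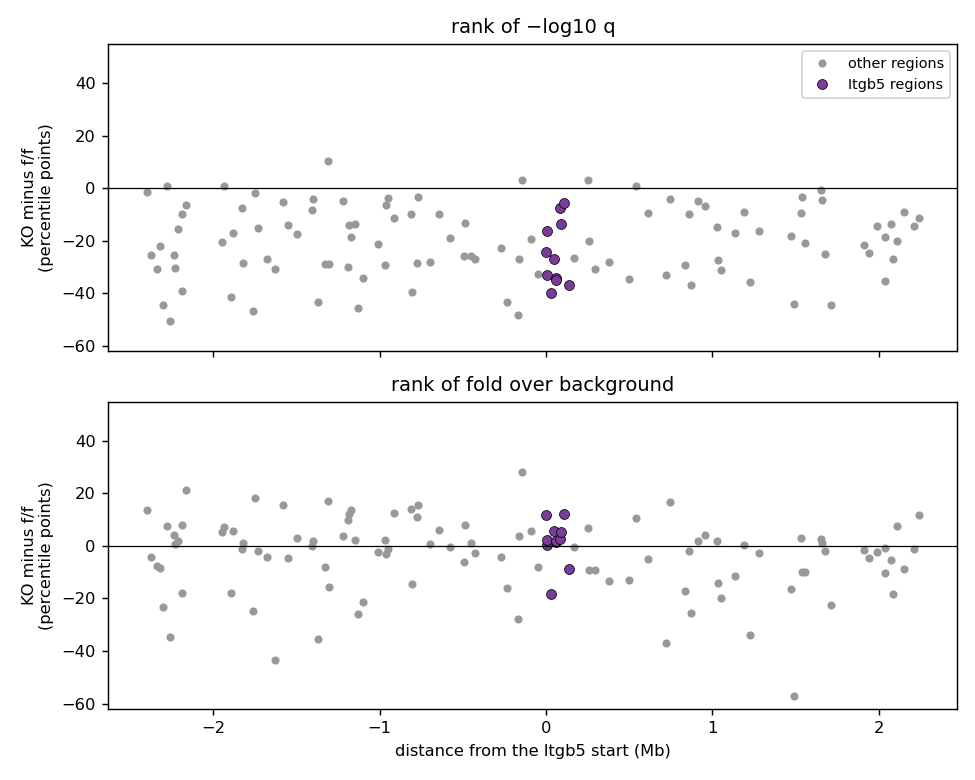
Difference between KO and f/f in percentile points for regions with a peak in all 6 libraries around Itgb5, against distance from its start (Mb), by rank of −log10 q (upper panel) and by rank of fold over background (lower panel). Itgb5 regions are purple and the 105 other regions grey. By −log10 q 11 of 11 Itgb5 and 99 of 105 other regions lie below 0, and by fold 2 of 11 and 60 of 105 do.

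Itgb4, the β4 subunit of the laminin receptor α6β4, had differences of both signs. A region within the gene on chr11:116004734-116005702 was ranked 31.2, 25.4 and 17.3 in f/f and 58.9, 57.3 and 56.8 in KO (33.0 points, SE 4.85, adjusted p = 0.00235). The KO libraries lay close together, all above f/f. A region 9120 bp from the gene, within Sap30bp on chr11:115964254-115965605, was ranked 58.2, 52.2 and 55.6 in f/f and 19.3, 35.5 and 31.2 in KO (-26.7 points, SE 5.29, adjusted p = 0.00813). Here too every f/f library was the higher. In the surroundings of Itgb4 56 of 237 tested regions were lower and 21 higher.

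Itgb7, a β subunit known from lymphocytes, had 12 regions, and the region that reaches its start window was near the top of every list. The rank of that region was 99.4 to 99.5 in f/f and 99.4 to 99.7 in KO (0.093 points, adjusted p = 0.944). Its peaks overlapped the window itself in f/f replicates 2 and 3 and KO replicate 1 only, with summits 1031, 983 and 1097 bases after the start. Within the gene, 7.23 kb after the start on chr15:102224121-102225282, the rank was 88.9, 76.6 and 84.7 in f/f and 61.5, 50.3 and 47.3 in KO. Every f/f library was above every KO library there (-30.4 points, SE 4.79, adjusted p = 0.0032). A peak of 278 bp on chr15:102232878-102233155 was only in f/f, at percentiles 51.1, 42.3 and 42.5 of the whole lists. A region 12333 bp away in Rarg, a retinoic acid receptor gene, was ranked 94.5, 89.0 and 89.4 in f/f and 96.1, 95.4 and 96.6 in KO. Its difference of 5.07 points (SE 1.57, adjusted p = 0.0458) was lost when any library but f/f replicate 1 was left out (adjusted p 0.0967 to 0.148).

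The other β subunits had few calls. Itgb6, an epithelial β subunit, had 2 lower regions of 4 tested, of which the one 13969 bp away on chr2:60583151-60584323 was ranked 40.6, 28.8 and 38.1 in f/f and 7.35, 15.2 and 10.6 in KO (-24.8 points, SE 4.29, adjusted p = 0.0046). At Itgb3, which pairs with αv and αIIb, a region at an end of the span was ranked 9.20, 23.8 and 27.7 in f/f and 38.3, 38.8 and 44.4 in KO. All 3 KO libraries were above all 3 f/f libraries (20.3 points, SE 5.38, adjusted p = 0.0261), and the call was lost without f/f replicate 1, f/f replicate 2, KO replicate 2 or KO replicate 3 (adjusted p 0.0584 to 0.0819). The single region of Itgb8, at its start, was ranked 53.6, 53.7 and 52.3 in f/f and 63.9, 57.7 and 66.1 in KO. These values do not overlap, yet the difference did not pass (9.35 points, SE 4.09, adjusted p = 0.129). Itgb1, the β subunit shared by most collagen, fibronectin and laminin receptors, had 2 tested regions, and neither passed. Its start was ranked 73.8, 77.1 and 72.8 in f/f and 77.6, 79.8 and 88.8 in KO (7.5 points, SE 3.20, adjusted p = 0.121).

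The 15 adaptors, kinases and actin linkers held 264 regions. Of 107 tested regions 17 were higher (15.9%) and 11 lower (10.3%), near the 12.6% and 11.3% of all regions, while the median was -0.38 points, so that calls and median differ in sign. Regions only in f/f were found at Zyx, Actn1 and Src, 1 each, and regions only in KO at Pxn, which had 2, and Bcar1, which had 1. Each kind made up 1.14% of the 264 regions, against 3.75% and 0.179% of all regions.

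Talin and kindlin switch integrins on. Tln1, which encodes talin 1, had 6 tested regions on chromosome 4, of which 3 were higher and 1 lower. The one 15437 bp away, overlapping Gba2 and Rgp1, was ranked 86.3, 84.3 and 85.9 in f/f and 96.2, 96.6 and 96.7 in KO (11.0 points, SE 1.23, adjusted p = 0.000739). One within the gene on chr4:43558474-43559186 was ranked 15.1, 9.78 and 9.99 in f/f and 24.7, 22.2 and 25.2 in KO (12.4 points, SE 3.17, adjusted p = 0.0231). The start of Tln1, which also overlaps Creb3, was ranked 81.9, 82.8 and 86.5 in f/f and 90.0, 88.7 and 96.4 in KO (8.02 points, SE 2.29, adjusted p = 0.0341). The groups did not overlap at these 3 regions. The start lost its call without f/f replicate 1, f/f replicate 2, KO replicate 1 or KO replicate 3 (adjusted p 0.0514 to 0.0968), and the inner region without f/f replicate 2, f/f replicate 3 or KO replicate 1 (adjusted p 0.0532 to 0.101). Higher regions were frequent around this gene, with 52 of 109 other tested regions within 2.5 Mb higher and 0 lower (median 8.86), while by fold rank the median of those 109 was 0.459.

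Tln2, which encodes talin 2, spans 417 kb and had 35 regions. A region at an end of its span, on chr9:67632477-67634652, was ranked 17.8, 35.5 and 27.7 in f/f and 56.8, 48.6 and 49.1 in KO (24.5 points, SE 5.53, adjusted p = 0.0136). The groups did not overlap, and the adjusted p was 0.0516 without f/f replicate 3. A pair of regions inside the gene differed in sign. On chr9:67572308-67574295 the rank was 33.1, 27.1 and 23.7 in f/f and 6.34, 4.76 and 4.91 in KO (-22.6 points, SE 3.37, adjusted p = 0.00254). On chr9:67463340-67464567 it was 3.10, 6.58 and 8.41 in f/f and 18.0, 29.1 and 26.0 in KO (18.3 points, SE 3.65, adjusted p = 0.00823). Both separated the groups without overlap.

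The start of Fermt2, named after its value was seen, had the largest positive difference of the 21 member starts tested. Genes with no start window, such as Tln2, are not among these. The rank was 44.5, 36.0 and 40.2 in f/f and 57.9, 61.6 and 62.1 in KO, so that every KO library was above every f/f library (20.3 points, SE 4.42, adjusted p = 0.0118). Its other tested region did not pass. The start of Ilk, which encodes the integrin-linked pseudokinase, was chosen in the same way and also overlaps Rrp8. It was ranked 84.3, 72.2 and 73.8 in f/f and 92.3, 91.3 and 92.7 in KO (15.3 points, SE 3.01, adjusted p = 0.00781). Ilk has 2 start windows on this region. From the outer start the summit lay 40 bases before it in all 3 KO libraries and 109 to 114 before it in f/f, and from the inner one 175 and 244 to 249 bases. Around Ilk 10 of 32 other tested regions were higher and 3 lower (median 1.39). Its partner Parva, α-parvin, had 5 tested regions and none past the threshold.

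Pxn, which encodes paxillin, a docking protein of focal adhesions, had regions higher in KO and regions in KO alone. Within the gene on chr5:115506333-115508905 the rank was 64.7, 61.2 and 62.8 in f/f and 89.4, 86.7 and 86.4 in KO (24.6 points, SE 2.52, adjusted p = 0.000525), which passed by fold too (33.9, adjusted p = 0.0481). At an end of the span, on chr5:115491784-115492433, it was 78.3, 76.4 and 75.4 in f/f and 91.8, 94.9 and 92.5 in KO (16.4 points, SE 1.77, adjusted p = 0.000638). Close to that end, on chr5:115492994-115493338, a peak was only in KO, at percentiles 53.6, 46.5 and 23.7 of the whole lists and with a −log10 q of 34.2, 30.9 and 6.54. The KO-only peak on chr5:115534258-115534736 was weak, with a −log10 q of 5.34, 3.0 and 1.91. None of the 12 tested Pxn regions was lower, and its surroundings had 13 of 156 lower and 18 higher.

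Bcar1 encodes p130Cas, the scaffold that FAK and Src phosphorylate. At the outer of its starts, shown above, a peak on chr8:111743645-111744073 was only in KO, with a −log10 q of 4.58, 4.66 and 2.1 in replicates 1 to 3. These are weak peaks, at percentiles 9.01, 6.58 and 1.22 of their lists. The inner start had a peak in all 6 libraries, ranked 67.2, 62.1 and 65.4 in f/f and 76.9, 72.2 and 70.3 in KO. The groups did not overlap, and the difference did not pass (8.27 points, SE 3.34, adjusted p = 0.104).

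Both kinases had lower regions. Src had 5 tested regions with negative differences at all 5, and 2 of them were lower. The region 11466 bp from the gene on chr2:157410692-157412440 was ranked 46.4, 56.3 and 53.1 in f/f and 21.4, 20.7 and 25 in KO (-29.6 points, SE 4.46, adjusted p = 0.00264). One 27.5 kb after the start was ranked 17.1, 12.6 and 12.2 in f/f and 2.31, 1.80 and 0.575 in KO (-12.4 points, SE 2.54, adjusted p = 0.00908). Both fell in every KO library below every f/f library, and a weak peak 44.2 kb after the start was only in f/f, with a −log10 q of 4.02, 4.19 and 9.41. The Src start overlapped between groups (-4.25 points, SE 3.63, adjusted p = 0.429). Around Src 16 of 112 other tested regions were lower and 9 higher.

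Ptk2, which encodes FAK, had 8 tested regions on chromosome 15. Within the gene on chr15:73318452-73319353 the rank was 88.5, 88.0 and 89.8 in f/f and 72.8, 67.7 and 59.3 in KO (-22.2 points, SE 3.39, adjusted p = 0.00285). Every KO library was lower. A region 19257 bp away in Ago2 was ranked 89.1, 91.1 and 92.8 in f/f and 94.5, 96.9 and 96.9 in KO, a difference of 5.08 points (SE 1.34, adjusted p = 0.0256). It was lost without f/f replicate 1, f/f replicate 2, KO replicate 2 or KO replicate 3 (adjusted p 0.0622 to 0.0956). At an end of its span Ptk2 was ranked 96.5 to 97.4 in f/f and 99.1 to 99.3 in KO (2.30 points, SE 0.831, adjusted p = 0.0756).

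Among the proteins that tie adhesions to actin, the starts of Zyx and Actn1 rose and regions inside the genes went either way. The Zyx start was ranked 90.2, 86.3 and 85.2 in f/f and 95.5, 95.8 and 97.9 in KO (9.18 points, SE 1.58, adjusted p = 0.0045), with all KO libraries above f/f. Inside Zyx, where the span of Epha1 also lies, a peak on chr6:42358947-42359775 was only in f/f, at percentiles 14.3, 16 and 16.1. The Actn1 start was ranked 66.7, 72.7 and 67.8 in f/f and 81.1, 83.4 and 87.4 in KO (14.9 points, SE 2.83, adjusted p = 0.00671). Of these 2 starts neither lost its call when any 1 library was left out. Inside Actn1, 30.4 kb after the start, a region was ranked 20.2, 15.0 and 21.0 in f/f and 39.5, 38.9 and 40.1 in KO (20.7 points, SE 3.77, adjusted p = 0.00559). At 25.8 kb, on chr12:80234325-80234849, a peak was only in f/f, at percentiles 41.6, 36.3 and 35.1, and at 39.6 kb a region fell by 17.2 points (SE 4.15, adjusted p = 0.0179). Regions with opposite differences thus stood inside the same gene. The last of these lost its call without f/f replicate 1, KO replicate 1 or KO replicate 2 (adjusted p 0.0534 to 0.0599).

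Actn4, which encodes α-actinin 4, also had 1 region in each direction. The one 18875 bp away, overlapping Eif3k and Map4k1, was ranked 92.1, 96.0 and 92.3 in f/f and 78.8, 80.8 and 82.5 in KO (-12.8 points, SE 1.78, adjusted p = 0.00188). Inside the gene on chr7:28943311-28944143 the rank was 8.19, 14.5 and 4.23 in f/f and 29.8, 25.1 and 18.8 in KO (15.6 points, SE 4.05, adjusted p = 0.024). The second call was lost without f/f replicate 1, f/f replicate 3, KO replicate 1 or KO replicate 2 (adjusted p 0.0618 to 0.109). The Actn4 start overlapped between groups (1.23 points, adjusted p = 0.623). Vcl, vinculin, had 4 tested regions and no call, and its start was ranked 84.3 to 91.3 in f/f and 90.6 to 95.6 in KO (3.80 points, SE 2.16, adjusted p = 0.231).

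The tensins hold β tails and actin in the more central, elongated adhesions. Tns3 had 4 lower and 2 higher regions of 12 tested on chromosome 11. Around Tns3 12 of 45 other tested regions were lower and 2 higher (median -4.83). At chr11:8656537-8657262, 7.64 kb after the start, the rank was 16.3, 15.0 and 16 in f/f and 42.6, 45.7 and 35.9 in KO (25.6 points, SE 4.02, adjusted p = 0.00312). At chr11:8589123-8590084, 74.9 kb after the start, it was 44.1, 49.3 and 46.5 in f/f and 19.1, 27.1 and 19.2 in KO (-24.8 points, SE 4.31, adjusted p = 0.00467). The groups were apart at both regions, while the Tns3 start overlapped (-1.46 points, SE 4.53, adjusted p = 0.843). Tns1, tensin 1, had 32 regions, 17 tested and 1 higher, by 11.1 points (SE 3.10, adjusted p = 0.0319), a call lost without f/f replicate 2, f/f replicate 3, KO replicate 1 or KO replicate 2 (adjusted p 0.0552 to 0.108).

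**Figure D5:**
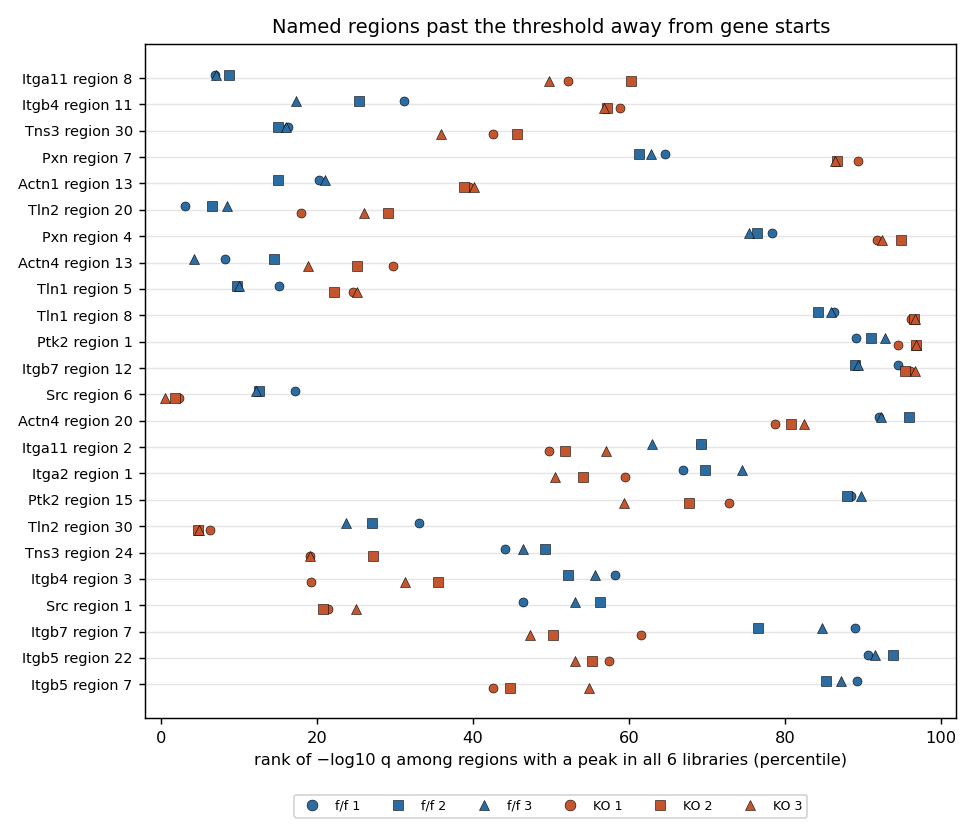
Rank of −log10 q (percentile among regions with a peak in all 6 libraries) in each library at the regions past the threshold that are described for members by number of calls, away from gene starts and ordered by difference, with blue f/f and red KO symbols. Regions are numbered along the chromosome. At each of them the 3 KO libraries lie on 1 side of the 3 f/f libraries, from Itga11 region 8 (46.5 points) at the top to Itgb5 region 7 (-39.9 points) at the bottom. The regions were picked by a fit to these same ranks, so the separation is no separate evidence.

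Genes of the same pathway that are no members were read in the same way. Ligands and basement membrane genes, 17 in number, had 6 of 41 tested regions higher (14.6%, against 12.6% of all regions) and 0 lower (against 11.3%), with 4 of 129 regions only in f/f and 0 only in KO. The higher regions were at 4 genes, with 2 each at Lamc1, the laminin γ1 chain, and Fbn1, fibrillin 1. Other focal adhesion genes, 55 in number, had 33 of 226 tested regions lower (14.6%) and 34 higher (15.0%), with 25 of 641 regions only in f/f and 1, at Rapgef1, only in KO. Of those 33 lower regions, Lpp and Pak2 on chromosome 16 held 10 and 4. The 7 integrin genes of leukocytes and platelets had 1 of 13 tested regions lower, at Itgb2, and 0 higher, with 2 of 39 regions only in f/f and 0 only in KO.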

How the data were processed

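The deposited data were 6 lists of narrow peaks, 1 per ATAC-seq library. According to the methods and the submitters' processing notes, the authors trimmed reads (Trimmomatic), mapped them by BWA against mm10 and called peaks with MACS2 2.1.2. Each deposited list gives a score, the fold of the summit over background, a −log10 p and a −log10 q, of which the −log10 q of the authors was used and the fold served as an alternative. How duplicates were treated is not given in the sources used here. No column holds counts, so that the authors' count comparison was replaced by presence and rank, and the reads behind a single peak are unknown. The study's supplement lists mapped reads per library, which entered no step here. By them f/f replicate 1 was the shallowest library and KO replicate 3, with the shortest peak list, the next.

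Peaks were merged at 1 bp of overlap. The regions that every library had a peak in were given a rank in each, and ranks were fitted over all such regions with limma 3.58.1 (trend, no robust step, group as the only term) in R 4.3.3, with Benjamini-Hochberg adjustment at 0.05. Merging and fit were tested on simulated data. Gene spans and start windows came from RefSeq GRCm38.p6, where all 34 members were found and 26 had a start window. Genes described in full are those with a region only in 1 group and the 12 with most calls, with the largest and smallest members, and regions were chosen at each by standing or adjusted p. Other genes were named after their values were seen. The members, lists and rules were chosen with earlier results of these data known. Alternatives were other peak thresholds, equal list lengths, overlaps, summit windows, extensions, ranks, weights, a replicate block and each library left out.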

Additional observations from a re-analysis of the deposited data

How the results depend on the processing

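Counts at members depended most on the scale of the rank and on single libraries. Regions lower in KO numbered 31, and 2 when ranked by fold over background, 1 when ranked within the whole list and 18 of 126 over the gene span without extension, where 19 were higher (14.3% and 15.1%). Regions higher in KO numbered 23, and 2 by fold and 0 within the whole list. Whole-list ranks include the short list of KO replicate 3, and the cause of the difference by fold was not tested. Leaving out 1 library gave 20 to 42 lower and 16 to 27 higher regions, 6 to 16 regions only in f/f, 3 to 21 only in KO and 10 to 16 genes with a group-specific region, where all libraries gave 6, 3 and 7. A peak in at least 2 of 3 libraries of 1 group and none of the other gave 26 regions for f/f, 22 for KO and 24 genes. With spans extended by 50 kb, 17 regions were only in f/f and 16 genes had a group-specific region. Without Itgb5 there were 23 lower regions, and without Itgb5, Itga1 and Itga2 there were 21 lower regions and 4 only in f/f (both chosen after seeing the data).

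Same-numbered libraries did not deviate together (correlations 0.068, -0.105 and -0.124). These correlations cannot decide whether such libraries were prepared together. With a replicate block 25 member regions were lower and 20 higher, and 9 of 54 calls did not pass. Of the 54 calls, 7 changed sign under an alternative. By fold these were 6 Itgb5 regions, with the start at 11.8 and the others at 0.356, 2.30, 5.69, 1.5 and 1.87. Within the whole list it was a region centred 10.2 kb before the Itgav start (-0.71), and not the start itself. Among regions that did not pass, the sign changed within the whole list at Itga2 (-9.17), Itgb7 (-0.054), Bcar1 (-1.09), Actn4 (-0.51), Itgb8 (-1.29), Itga3 (-3.85), Itga5 (-1.46), Itga6 (-1.02) and Itga8 (-1.55). By fold it changed at Src (0.118), Tns3 (0.618), Itgb8 (-2.10) and Parva (2.85), and with array weights at Itga5 (-0.62), Itga8 (-2.68) and Itga10 (3.6). Over the fits without 1 library it ranged from -4.48 to 2.24 at Tns3, the highest without f/f replicate 3. The range was -0.61 to 2.48 at Actn4 and -2.19 to 3.57 at Itga5, both lowest without f/f replicate 1, and -13.0 to 3.07 at Itga10, highest without KO replicate 3.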
